A study of Mus musculus with 5 samples.

Results

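The 40 genes described here encode enzymes and transporters that burn fatty acids in mitochondria and peroxisomes, the acyl-CoA synthetases that activate those acids, and a peroxisome division protein. They were chosen by gene symbol, and all 40 were found among the 24549 genes named on the arrays. By the place their proteins are known to work, 18 were counted as mitochondrial, 12 as peroxisomal and 8 as acyl-CoA synthetases, and 2 (Crat and Acad11) were kept apart because they work in both places or their place is unsettled. The location was assigned from general knowledge, not from these data, and the synthetases were kept as a class of their own wherever they work in the cell.

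Expression was measured in C57BL/6 mouse tissue on 5 one-colour microarrays, 1 per group. The groups were tissue recovered 2 weeks after transplantation of a kidney bud, tissue recovered 4 weeks after it, and kidney taken from the embryo (E13.5), at birth (P0) and at 8 weeks of age. The labels do not give the cells in the bud, the host, the graft site, the sex or the number of animals behind an array. With 1 array per group there is no replicate, so no difference has a p-value, and each value describes single arrays whose number limits the precision.

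A level is the log2 of a probe's processed intensity minus the log2 of that array's 75th percentile, so 0 is the 75th percentile. Levels are compared between arrays for 1 gene, never between genes. A gene is called at least 2-fold higher or lower, and the share of all genes that pass the same threshold is given with the first count in a comparison. Where a probe was well above background on only 1 of the arrays compared, the fold is a lower bound and is written "at least". Of the 40 genes, 35 were well above background on all 5 arrays. Slide 1 held the 2-week transplant with the E13.5 kidney, and slide 2 held the remaining arrays. A comparison between slides cannot be separated from slide: the 2 cannot be told apart. At P0 Ddx3y, on the Y chromosome, was not well above background, and at 8 weeks Xist, expressed from the inactive X, was not. Sex therefore cannot be told apart from group where either of those kidneys is compared. Both genes were well above background at E13.5 and in both transplants. From the 2-week to the 4-week transplant the level of Xist went from -1.60 to -2.88 and that of Ddx3y from -1.40 to -0.06. A difference in sex between the transplants therefore cannot be set aside either.

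In the mitochondrial pathway, long-chain fatty acids are activated to acyl-CoA, carried across the inner membrane as carnitine esters, and shortened in repeated cycles of dehydrogenation, hydration, a second dehydrogenation and thiolysis. Electrons from the first step pass through the electron transfer flavoprotein to the respiratory chain. Peroxisomes shorten very long, branched and bile acid side chains by a parallel route whose first step makes hydrogen peroxide. The adult proximal tubule takes most of its energy from fatty acid oxidation and is rich in mitochondria and peroxisomes, as are brown fat and steroid-making cells. Many of these genes are known targets of the nuclear receptor PPARα, which binds a direct repeat of the hexamer AGGTCA with a spacer base.

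RefSeq promoter windows (GRCm38.p6, 250 bases before to 50 bases after the gene start) matched 34 of the 40 genes by symbol. A window each is shown for the mitochondrial Cpt1a and Acadvl and the peroxisomal Acox2 and Scp2, each of which holds a match. Windows without a match are not shown. Capitals mark a match to AGGTCA on either strand, or, in Acox2, to a looser repeat described after the sequences. Cpt1a lies on the plus strand at chr19:3323051-3323350, Acadvl on the minus strand at chr11:70015379-70015678, Acox2 on the minus strand at chr14:8258970-8259269 and Scp2 on the minus strand at chr4:108118498-108118797.
Cpt1a: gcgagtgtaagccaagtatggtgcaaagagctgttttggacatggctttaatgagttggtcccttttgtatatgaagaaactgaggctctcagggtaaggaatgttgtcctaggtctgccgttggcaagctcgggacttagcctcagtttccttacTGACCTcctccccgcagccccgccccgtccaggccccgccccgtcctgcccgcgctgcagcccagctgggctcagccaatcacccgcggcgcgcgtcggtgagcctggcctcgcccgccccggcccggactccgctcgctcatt
Acadvl: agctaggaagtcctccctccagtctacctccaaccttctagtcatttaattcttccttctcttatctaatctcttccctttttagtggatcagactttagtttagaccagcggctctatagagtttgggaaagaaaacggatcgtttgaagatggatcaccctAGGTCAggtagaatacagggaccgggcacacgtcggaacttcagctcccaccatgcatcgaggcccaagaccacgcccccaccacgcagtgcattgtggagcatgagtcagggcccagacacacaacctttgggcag
Acox2: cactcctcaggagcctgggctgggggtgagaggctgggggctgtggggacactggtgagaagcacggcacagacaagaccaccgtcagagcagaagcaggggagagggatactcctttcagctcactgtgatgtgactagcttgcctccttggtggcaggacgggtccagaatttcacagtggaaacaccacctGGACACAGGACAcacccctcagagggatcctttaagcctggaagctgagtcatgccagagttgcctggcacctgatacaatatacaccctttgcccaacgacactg
Scp2: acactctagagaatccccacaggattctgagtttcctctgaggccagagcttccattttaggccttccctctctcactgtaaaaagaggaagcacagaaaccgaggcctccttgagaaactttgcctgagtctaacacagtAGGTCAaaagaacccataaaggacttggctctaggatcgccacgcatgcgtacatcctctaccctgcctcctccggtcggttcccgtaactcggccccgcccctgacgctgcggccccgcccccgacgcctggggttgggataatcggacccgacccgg

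The hexamer AGGTCA occurred in the window of 7 of the 34 genes (20.6%), against 18.1% of 27025 genes with a window, which is near the background. It was present in 4 of 15 mitochondrial and 1 of 10 peroxisomal genes. Its exact direct repeat with any 1 base between the copies occurred in 0 of the 34 and in 13 of all genes. A looser repeat was GGNCA, any base, A and GGNCA again, searched on both strands and including every exact repeat. It occurred in 1 of the 34, Acox2, where it read GGACACAGGACA from position -56 relative to the gene start, and in 0.932% of all genes. A match is a description of letters in a window and says nothing of binding.

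**Figure D1:**
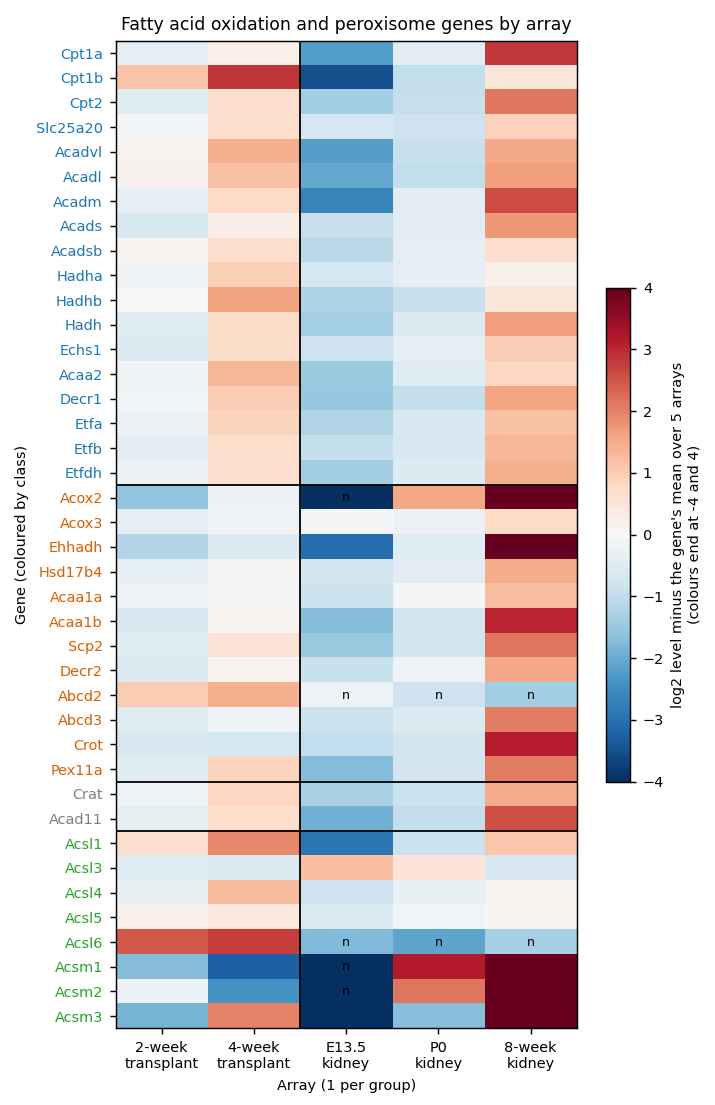
Each row is a gene and each column an array, 1 per group, with the 2 transplants left of the 3 kidneys and, from the top, mitochondrial, peroxisomal, unsettled and synthetase genes. Colour gives the log2 level minus the gene's mean over the 5 arrays, ending at -4 and 4, and n marks a probe not well above background. The lowest level lay in the E13.5 kidney for 35 of 40 genes, and the highest lay in the 8-week kidney for 29 and in the 4-week transplant for 10.

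The map of levels by array shows a common course in the kidney. Of the 40 genes, 35 lay in the order E13.5, P0 and 8 weeks from low to high, against 26.1% of the 19358 genes well above background on any array. The lowest level of the 5 arrays lay at E13.5 for 35 genes, against 24.7% of those genes. The highest lay in the 8-week kidney for 13 of 18 mitochondrial and 11 of 12 peroxisomal genes, and in the 4-week transplant for 5 mitochondrial and 1 peroxisomal gene, against 31.9% and 15.8% of those genes. None of the 40 had its highest level in the 2-week transplant or at P0, where 13.7% and 7.73% of those genes did.

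The P0 against the E13.5 kidney covers the fetal part of that course. Of 38 genes compared, 11 were at least 2-fold higher and 0 lower, where 13.9% and 11.9% of all 17563 genes were. The mitochondrial median difference was 0.64, the peroxisomal 0.71 and that of all genes -0.12. The 11 were Cpt1a, Cpt1b, Acadvl, Acadl, Acadm, Acox2, Ehhadh, Acsl1 and the 3 Acsm genes. None of the 6 enzymes of hydration, thiolysis and double-bond reduction and none of the 3 electron transfer genes reached 2-fold. With a normexp background correction, whose fitted background on the E13.5 array was negative, Cpt1b and Acsm3 turned direction.

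The 8-week against the P0 kidney held the larger step, within slide 2. There 34 of 38 genes exceeded 2-fold upwards and 1 downwards, where 23.6% and 21.0% of all 17651 genes did. Each of the 11 peroxisomal genes compared was higher, with a median difference of 2.80, and 17 of 18 mitochondrial genes, with a median of 1.96, against 0.07 for all genes. Hadha, at 1.49-fold, was the mitochondrial gene within 2-fold. Acsl3 was the gene that was lower (2.23-fold). Over the whole span, the 8-week kidney had 33 of 38 genes higher than E13.5 and 1 lower, where 27.3% and 27.3% of all 17630 genes were. The medians were 2.76 (mitochondrial) and 3.64 (peroxisomal), and the arrays lay on different slides.

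The carnitine shuttle admits long-chain acids to the mitochondrion. Cpt1a, the liver and kidney form of the outer-membrane transferase that sets the rate of entry, had a log2 level of 1.30 in the 2-week and 1.90 in the 4-week transplant, against -0.54, 1.28 and 4.51 in the E13.5, P0 and 8-week kidneys. Both transplants thus lay within 2-fold of P0, and the 8-week kidney lay 6.11-fold above the 4-week transplant. Cpt1b, the muscle and brown fat form of the same enzyme, had levels of -0.27 and 1.45 in the 2-week and 4-week transplants, against -4.95, -2.41 and -0.93 in the E13.5, P0 and 8-week kidneys. Both transplants lay above all 3 kidneys, the 4-week transplant 5.21-fold and the 2-week transplant 1.59-fold above the 8-week kidney. The second probe of each gene gave the same directions, with log2 differences between the 4-week transplant and the 8-week kidney of -2.52 for Cpt1a and 2.49 for Cpt1b.

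Cpt2, the inner-membrane transferase, had levels of 2.71 and 3.87 in the 2-week and 4-week transplants, against 1.81, 2.29 and 5.29 in the E13.5, P0 and 8-week kidneys. Slc25a20, the carnitine carrier, had levels of -0.60 and 0.18 in the transplants, against -1.22, -1.32 and 0.42 in the kidneys in the same order. Each transplant lay between P0 and 8 weeks for both genes, and Slc25a20 was 1.18-fold lower in the 4-week transplant than in the 8-week kidney, a direction that turned in the authors' table.

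The acyl-CoA dehydrogenases take the first step for chains of different length. Acadvl, which acts on very long chains, had levels of 4.75 and 6.06 in the 2-week and 4-week transplants, against 2.40, 3.71 and 6.13 in the E13.5, P0 and 8-week kidneys. Acadm, which acts on medium chains, had levels of 3.95 and 5.10 in the transplants, against 1.63, 3.88 and 6.91 in the kidneys. The long-chain enzyme thus reached the adult kidney's level in the 4-week transplant to within 1.05-fold, while the medium-chain enzyme lay 3.51-fold below it. The sign of the small Acadvl difference turned with quantile normalization and in the authors' table. Acads, for short chains, lay 2.76-fold and Acadl, another long-chain enzyme, 1.38-fold below the 8-week kidney in the 4-week transplant. Acadsb, which acts on short branched chains, was within 1.02-fold of it, with a sign that turned under both normexp corrections, and its second probe was not well above background on any array.

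Hadha and Hadhb form the trifunctional protein, which completes the cycle for long chains. Hadha had levels of 0.30 and 1.40 in the 2-week and 4-week transplants, against -0.22, 0.06 and 0.64 in the E13.5, P0 and 8-week kidneys. Hadhb had levels of 4.11 and 5.73 in the transplants, against 2.87, 3.23 and 4.61 in the kidneys. Both were highest in the 4-week transplant, which lay 1.68-fold (Hadha) and 2.17-fold (Hadhb) above the 8-week kidney. Acaa2, the mitochondrial thiolase for shorter chains, was also highest there, at 1.41-fold above. Hadh and Echs1, which act on shorter chains, and Decr1, which removes double bonds, lay below the 8-week kidney, with log2 levels in the 4-week transplant of 4.41 (Hadh), 4.69 (Echs1) and 5.57 (Decr1), against 5.33, 4.95 and 6.16 in that kidney. For Echs1 that direction turned with quantile normalization and in the authors' table.

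Etfa and Etfb are the subunits of the electron transfer flavoprotein, and Etfdh hands its electrons to ubiquinone. Etfa had levels of 4.41 and 5.55 in the 2-week and 4-week transplants, against 3.44, 4.00 and 5.82 in the E13.5, P0 and 8-week kidneys. Etfb and Etfdh took the same order of arrays, and in the 4-week transplant the 3 genes lay 1.20-fold to 1.65-fold below the 8-week kidney. The direction for Etfa turned with quantile normalization and in the authors' table.

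Peroxisomal oxidation begins with acyl-CoA oxidases. Acox2, the oxidase of branched chains and bile acid precursors, had levels of -3.22 and -1.86 in the 2-week and 4-week transplants, against -7.62, -0.10 and 4.61 in the E13.5, P0 and 8-week kidneys, and was not well above background at E13.5. The 8-week kidney was at least 1458-fold above E13.5, and the 4-week transplant 88.9-fold below the 8-week kidney. Ehhadh, the bifunctional enzyme of straight-chain oxidation, had levels of -1.58 and -0.95 in the transplants, against -3.47, -0.91 and 4.95 in the kidneys. Both transplants lay below P0 for Acox2 and were within 2-fold of P0 for Ehhadh, and the 8-week kidney stood apart for both. Acox3, a second branched-chain oxidase, was 1.92-fold lower in the 4-week transplant than in the 8-week kidney by its brightest probe, and its 2 other probes gave log2 differences of -3.41 and -2.08.

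Hsd17b4 is the bifunctional enzyme for branched chains, and Acaa1a and Acaa1b are the peroxisomal thiolases. Hsd17b4 had levels of 3.07 and 3.45 in the 2-week and 4-week transplants, against 2.68, 2.97 and 4.89 in the E13.5, P0 and 8-week kidneys. Acaa1b had levels of 0.48 and 1.18 in the transplants, against -0.61, 0.36 and 4.17 in the kidneys. For both the transplants lay within 2-fold of P0 and apart from the 8-week kidney. Acaa1a was 2.46-fold lower in the 4-week transplant than in the 8-week kidney. Acaa1a and Acaa1b are close paralogs with 1 probe each, so cross-hybridisation between them cannot be told apart from expression. Decr2, the peroxisomal dienoyl-CoA reductase, lay 2.55-fold below the 8-week kidney.

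Scp2 encodes both a thiolase for branched chains and a sterol carrier protein. It had levels of 3.98 and 5.02 in the 2-week and 4-week transplants, against 2.96, 3.68 and 6.60 in the E13.5, P0 and 8-week kidneys. Pex11a, a protein of peroxisome division, had levels of 1.35 and 2.71 in the transplants, against 0.10, 1.10 and 3.90 in the kidneys. By the probes used, these were the peroxisomal genes, with Acox2, at least 2-fold higher in the 4-week than in the 2-week transplant. The second Scp2 probe gave a log2 difference of 0.79 in that comparison, which is under 2-fold.

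Crot is an enzyme that makes carnitine esters of chains shortened in the peroxisome. It had levels of 0.51 and 0.48 in the 2-week and 4-week transplants, against 0.19, 0.44 and 4.32 in the E13.5, P0 and 8-week kidneys. The first 4 of these arrays lay within 1.25-fold of each other, and the 8-week kidney lay 14.3-fold above the 4-week transplant. Abcd3, a transporter of the peroxisomal membrane, lay 4.59-fold below the 8-week kidney in the 4-week transplant. Its relative Abcd2, known from fat, brain and adrenal gland, was well above background in both transplants, with levels of -5.23 and -4.81 at 2 and 4 weeks, and in none of the 3 kidneys. Abcd2 in the 4-week transplant was at least 1.49-fold above the 8-week kidney and at least 2.31-fold above P0. The first bound is under 2-fold, so Abcd2 was not counted as higher than in the 8-week kidney, and its true fold is not known.

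**Figure D2:**
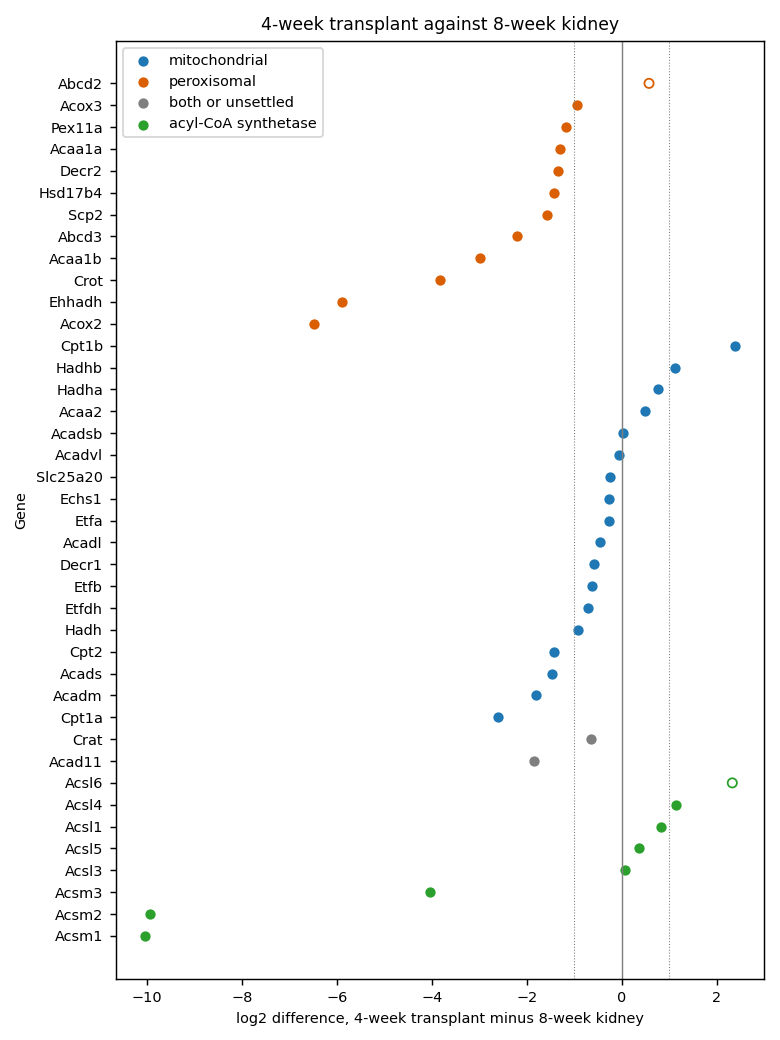
Each point is a gene, and the horizontal axis gives its log2 difference, the 4-week transplant minus the 8-week kidney. Open points are lower bounds and dotted lines mark 2-fold. Of 12 peroxisomal genes 10 lay below the lower line, against 4 of 18 mitochondrial genes.

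The 4-week transplant against the 8-week kidney, both on slide 2, gave the classes different medians with overlapping ranges. It had 4 of the 40 genes at least 2-fold higher and 18 lower, where 22.3% and 18.6% of all 18302 genes were. Of the peroxisomal genes 10 of 12 were lower and 0 higher, with a median difference of -1.51 and a range from -6.47 to 0.57. Of the mitochondrial genes 4 of 18 were lower (Cpt1a, Cpt2, Acadm and Acads) and 2 higher (Cpt1b and Hadhb), with a median of -0.37 and a range from -2.61 to 2.38, and the median of all genes was 0. Another well-above probe of Decr1 (-1.33) and of Etfb (-1.05) also passed 2-fold lower, against -0.58 and -0.63 by the probes used. A further Etfb probe gave -0.83. Among peroxisomal genes, the 2 other probes of Acox3 also passed 2-fold lower (-3.41 and -2.08). The mitochondrial median exceeded the peroxisomal by 1.14, a gap in which the scaling of the arrays largely cancels, and it ranged from 1.11 to 1.54 over the 8 settings. Counting the 3 Acsm synthetases, which are mitochondrial enzymes, with that class gave 7 of 21 lower, a median of -0.58 and a gap of 0.93. A list of 16 further genes counted as mitochondrial, described with the other pathway lists, had a median of -1.21. The number of mitochondrial genes above the 8-week kidney was 5 here, 4 with either normexp correction, 8 with quantile normalization and 9 in the authors' table, against 1 peroxisomal gene in each. Of all genes, 49.5% lay above it.

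The 2-week transplant against the 8-week kidney had 1 gene at least 2-fold higher and 29 lower, where 21.7% and 22.5% of all 18319 genes were. Of the mitochondrial genes 13 of 18 were lower (median -1.50) and of the peroxisomal 11 of 12 (median -2.54). These arrays lay on different slides.

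Set against the P0 kidney, the 2-week transplant had 5 of 40 genes higher and 4 lower, where 15.4% and 11.8% of all 18314 genes were, so neither count stood out. The higher genes were Cpt1b, Acadvl, Acadl, Acsl1 and Acsl6, and the lower were Acox2, Acsl3, Acsm1 and Acsm2. The medians were 0.40 (mitochondrial), 0.06 (peroxisomal) and -0.07 (all genes). Against E13.5, which shared its slide, 22 of 40 genes were higher and 1 was lower, where 21.5% and 20.3% of all 18256 genes were. These were 10 of 18 mitochondrial (median 1.19) and 5 of 12 peroxisomal genes (median 0.67), with 5 synthetases, Crat and Acad11. With that normexp correction Ehhadh, Crat and Acsm3 turned direction.

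The 4-week transplant against the P0 kidney, within slide 2, had 25 genes higher and 4 lower, where 19.2% and 13.9% of all 18438 genes were. Of the mitochondrial genes 16 of 18 were higher (median 1.42), with Cpt1a at 1.53-fold and Acads at 1.66-fold the exceptions. Of the peroxisomal genes 3 of 12 were higher, Scp2, Pex11a and Abcd2, and 1 was lower, Acox2 (median 0.37). Acox3, within 2-fold by the probe used, was higher by its 2 other probes (log2 differences of 1.35 and 1.99). Etfb, counted as higher, gave 0.58 by 1 other probe and 1.44 by another. The gap of 1.05 between the mitochondrial and peroxisomal medians ranged from 0.96 to 1.10 over the 8 settings. Against E13.5, on the other slide, the 4-week transplant had 34 of 40 genes higher and 1 lower, where 24.4% and 21.8% of all 18312 genes were. These were 18 of 18 mitochondrial (median 2.11) and 7 of 12 peroxisomal genes (median 1.07).

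**Figure D3:**
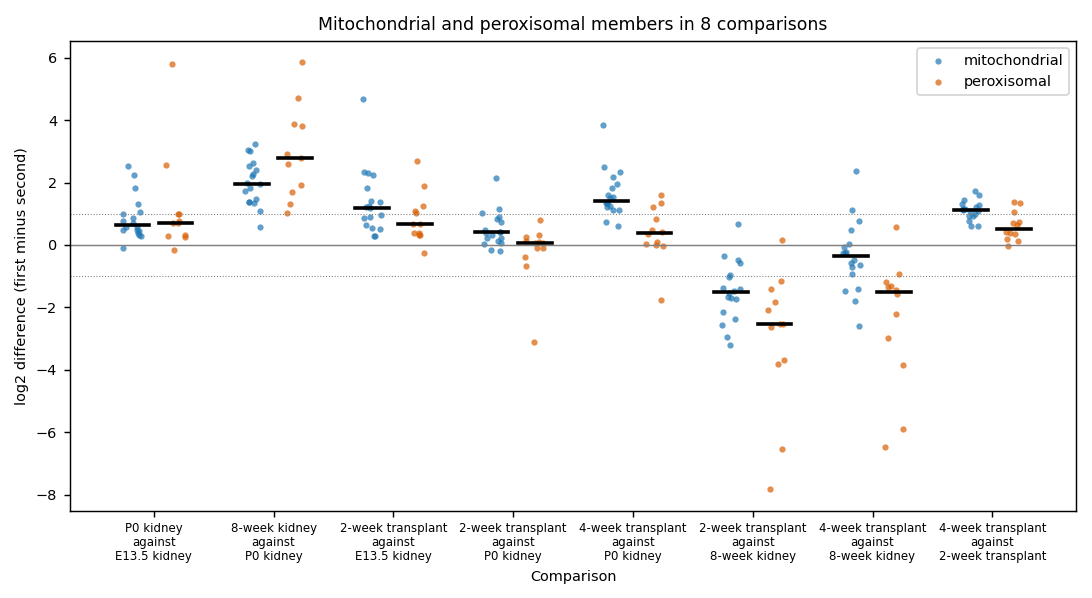
Points are genes, with mitochondrial left of peroxisomal in each of the 8 comparisons, and the vertical axis is the log2 difference, the first array named minus the second. Bars are medians, dotted lines mark 2-fold, and lower bounds are plotted at their bound. In the 4-week transplant against P0 the medians were 1.42 and 0.37, and in the 8-week kidney against P0 they were 1.96 and 2.80.

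The plot of both classes shows that the order of the medians differed between the graft and the kidney. From P0, the 8-week kidney had the higher peroxisomal median, and the gap of mitochondrial minus peroxisomal was -0.83 (from -1.05 to -0.64 over the settings). The 4-week transplant had the higher mitochondrial median. With the Acsm genes counted as mitochondrial, the gap was -0.60 in the 8-week kidney and 0.97 in the 4-week transplant. Both comparisons share the P0 array, so they are not independent, and no replicate allows a test of the difference between them.

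The last comparison set the 4-week transplant against the 2-week one. In it 21 of the 40 passed 2-fold upwards and 2 downwards, where 9.09% and 5.68% of all 18485 genes did. By the probes used, all 18 mitochondrial genes lay above the 2-week value, 13 of them at least 2-fold, with log2 differences from 0.60 (Cpt1a) to 1.72 (Cpt1b) and a median of 1.12. Other well-above probes of Cpt2 (0.96), Decr1 (0.62), Etfa (0.82) and Etfb (0.48), all counted among the 13, were under 2-fold. A further Etfb probe (1.14) and the second Cpt1b probe (1.76) passed it, and Acadl passed narrowly at 1.002. Of the peroxisomal genes 3 of 12 were at least 2-fold higher and the median was 0.53. The remaining higher genes were Crat, Acad11, Acsl1, Acsl4 and Acsm3. The authors' deposited table, made without percentile scaling, put the median of all genes at -0.19 and 11 members higher. The arrays lay on different slides.

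Crat, which makes acetylcarnitine in mitochondria and peroxisomes, had levels of -2.96 and -1.93 in the 2-week and 4-week transplants, against -4.07, -3.63 and -1.29 in the E13.5, P0 and 8-week kidneys. Acad11, a dehydrogenase of hydroxylated acids, had levels of 1.65 and 2.76 in the transplants, against 0.12, 1.10 and 4.62 in the kidneys. Both had the kidney's order by age, and both transplants lay between P0 and 8 weeks.

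The long-chain acyl-CoA synthetases activate fatty acids for oxidation, storage or membrane lipids, and they did not move as 1 group. Acsl1, the main form of fat, heart and liver, had levels of 3.72 and 4.95 in the 2-week and 4-week transplants, against 0.14, 2.16 and 4.12 in the E13.5, P0 and 8-week kidneys. Acsl4, which prefers arachidonate and is abundant in steroid-making cells, had levels of 1.53 and 3.08 in the transplants, against 0.99, 1.53 and 1.95 in the kidneys. Both were highest in the 4-week transplant, 1.78-fold (Acsl1) and 2.19-fold (Acsl4) above the 8-week kidney. The second Acsl1 probe gave a log2 difference of 1.03 there, just past 2-fold. Acsl3, a synthetase of the endoplasmic reticulum and lipid droplets, ran the other way, with levels of -0.97 and -1.05 in the transplants, against 0.72, 0.05 and -1.11 in the kidneys. Acsl6 was well above background in the transplants only, with levels of -3.37 and -3.06, and was at least 5.01-fold higher in the 4-week transplant than in the 8-week kidney. Its second probe was not well above background on any array, so that the result rests on 1 probe. Acsl5 stayed within 2.04-fold over all 5 arrays.

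The medium-chain synthetases are mitochondrial enzymes that also prepare acids for conjugation with glycine. Acsm2, a marker of the proximal tubule, had levels of -0.42 and -2.57 in the 2-week and 4-week transplants, against -7.22, 1.97 and 7.36 in the E13.5, P0 and 8-week kidneys. Acsm1 had levels of -2.95 and -4.47 in the transplants, against -6.15, 1.97 and 5.57 in the kidneys. Neither was well above background at E13.5, and both were lower in the 4-week than in the 2-week transplant, by 2.87-fold (Acsm1) and 4.43-fold (Acsm2). The 4-week transplant lay 1052-fold (Acsm1) and 974-fold (Acsm2) below the 8-week kidney. Acsm3 had levels of -2.03 and 1.83 in the transplants, against -4.62, -1.85 and 5.86 in the kidneys. It went the opposite way between the graft times, 14.5-fold higher at 4 weeks by the probe used, and its 2 other probes gave log2 differences of 3.88 and 0.85. The last of these was well above background in the 8-week kidney only, and the second Acsm1 probe was not in the 4-week transplant. The Acsm genes are related in sequence, and cross-hybridisation among them was not tested.

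Other genes of the pathway were read from lists, whose counts in the 4-week transplant against the 8-week kidney stand beside 22.3% of all genes higher and 18.6% lower. Of 16 further genes of fatty and branched-chain acid breakdown counted as mitochondrial, 10 were lower and 1 higher in the 4-week transplant than in the 8-week kidney (median -1.21). The lower ones were led by Gcdh (lysine breakdown, 15.1-fold lower). The 1 higher was Cpt1c (12.7-fold), a brain relative of the transferases known from the endoplasmic reticulum rather than mitochondria. The median of this list lay nearer to the peroxisomal than to the mitochondrial members. Eci1 and Hibch, which act in double-bond handling and valine breakdown, lay within 2-fold, Eci1 1.31-fold lower and Hibch 1.15-fold higher.

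Of 26 further enzymes and carriers counted as peroxisomal, 21 were lower in the 4-week transplant than in the 8-week kidney and 0 higher (median -1.96). Among them were Acot12, a thioesterase known from the cytosol (at least 980-fold lower), Dao, an amino acid oxidase (227-fold), and Acot4, another thioesterase (215-fold). From P0 to the adult kidney, 22 of the 26 were at least 2-fold higher at 8 weeks, where 23.6% of all genes were. Of 15 peroxins, which build the organelle, 4 were lower and 0 higher in the 4-week transplant than in the 8-week kidney (median -0.91), and the share lower was near that of all genes (18.6%).

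The regulators did not share 1 course. Ppara, the receptor that drives these genes in liver and kidney, had levels of 0.29 and 2.65 in the 2-week and 4-week transplants, against -3.17, -1.42 and 3.77 in the E13.5, P0 and 8-week kidneys. Pparg, the receptor of fat cells, had levels of 1.80 and 3.55 in the transplants, against -2.05, -1.07 and -1.35 in the kidneys. Hnf4a, a factor of the proximal tubule and liver, had levels of 0.30 and -0.91 in the transplants, against -2.55, 3.71 and 6.33 in the kidneys. In the 4-week transplant Ppara was thus 2.17-fold below the 8-week kidney, Pparg 29.8-fold above it and Hnf4a 152-fold below it. Of 10 regulators, 2 were higher and 4 lower in that comparison, where 22.3% and 18.6% of all genes were, so the count higher was near the background. The lower ones included the coactivator Ppargc1a (3.76-fold) and the nuclear receptor Esrra (3.60-fold), which act on mitochondrial genes.

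**Figure D4:**
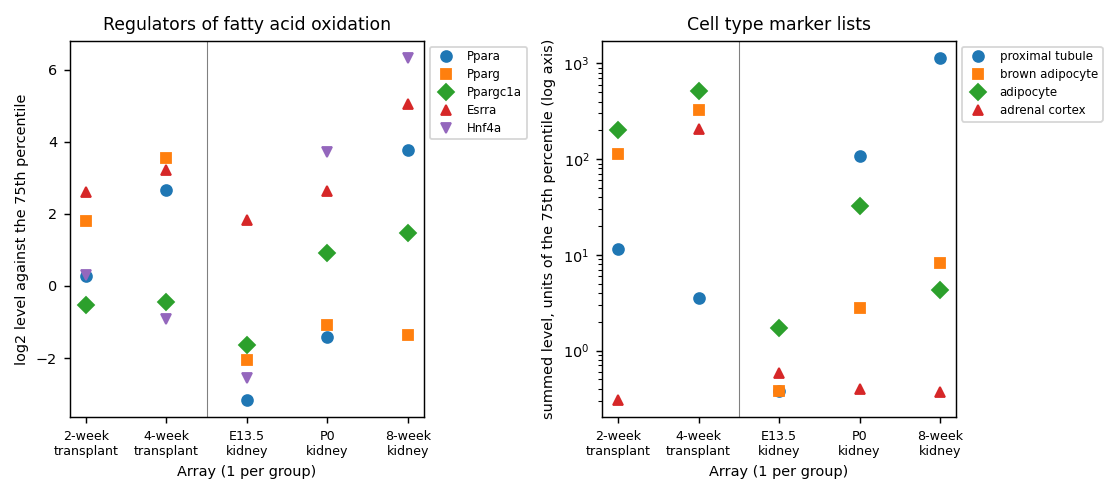
The left panel gives log2 levels of 5 regulators on each array, and the right panel the summed level of 4 marker lists on a log axis in units of the array's 75th percentile, with the transplants left of the kidneys. Pparg stood at 1.80 and 3.55 in the transplants and below 0 in the 3 kidneys, and the proximal tubule sum at 11.4 and 3.59 in the transplants and 1143 in the 8-week kidney.

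Of 14 known targets of PPARα compared, 3 were higher and 8 lower in the 4-week transplant than in the 8-week kidney. The count higher was near the share of all genes (22.3%), and 18.6% of all genes were lower. Pdk4, which turns fuel use from glucose to fat, had levels of 1.25 and 3.73 in the 2-week and 4-week transplants, against -4.34, -1.67 and 0.27 in the E13.5, P0 and 8-week kidneys. Cyp4a10, a fatty acid hydroxylase of the kidney, was 335-fold and Slc27a2, an acyl-CoA synthetase and transporter of the proximal tubule, 161-fold lower. Fgf21 was not well above background on any array. Genes of fatty acid synthesis lay higher: 8 of 9 in the 4-week transplant against the 8-week kidney (median 3.06), where 22.3% of all genes were, with Me1 2.08-fold lower. Against the 2-week transplant 9 of 9 were higher (median 1.71), where 9.09% of all genes were. Thrsp, a lipogenic gene of fat and liver, was 226-fold and Fasn, fatty acid synthase, 28.9-fold higher than in the 8-week kidney.

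Markers of several cell types differed between the arrays. The summed level of 9 proximal tubule markers was 11.4 in the 2-week and 3.59 in the 4-week transplant, against 0.38, 108 and 1143 times the 75th percentile in the E13.5, P0 and 8-week kidneys. That of 7 adipocyte markers was 204 and 512 in the transplants, against 1.73, 32.8 and 4.27 in the kidneys, of which Adipoq, Cfd and Lep were not well above background on any kidney array. That of 6 brown adipocyte markers was 113 and 327, against 0.38, 2.81 and 8.27, with Ucp1 well above background in both transplants and in no kidney. Elovl3, on the same list, was not well above background on any array. In the 8-week kidney 1 of these 6 markers was well above background. The summed level of 7 adrenal cortex markers was 0.30 and 207, against 0.59, 0.40 and 0.37, with Cyp11a1 and Cyp11b1 well above background in the 4-week transplant only. The part of these cells in the results for fatty acid genes was not tested, and fewer cells of a type and less RNA per cell cannot be told apart in whole tissue.

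The remaining marker lists took different courses. The sum of 6 loop and distal tubule markers was 5.29 and 5.36 in the 2-week and 4-week transplants, against 0.79, 13.7 and 187 in the E13.5, P0 and 8-week kidneys, which is the members' order by age. That of 7 macrophage markers was 63.8 and 40.9, against 3.75, 6.58 and 14.7. The 8 striated muscle markers, relevant to Cpt1b, summed to 1.16 and 1.18 in the transplants, against 1.14, 1.20 and 0.21 in the kidneys. Of these 8, 5 and 6 were well above background in the 2-week and 4-week transplants, against 6, 4 and 2 in the kidneys. The muscle creatine kinase Ckm and Myh4 were not well above background in either transplant. The part of muscle cells in the Cpt1b levels was not tested. The 6 hepatocyte markers summed to 2.79 and 235, against 1.47, 1.74 and 5.60, where Ttr held the 4-week value (log2 level 7.86) and Alb and Cps1 were not well above background in either transplant.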

How the data were processed

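RNA of the 5 groups was hybridised to 1 Agilent one-colour (Cy3) array each. The deposited scanner files hold spot intensity. Per the file headers, Agilent Feature Extraction 10.7.3.1 subtracted background and removed a spatial trend. The deposited gene table holds log2 values, and 99.7% of them lay within 0.01 of the row-centred log2 processed intensity without the 75th percentile shift its title names (18.2% with it). The deposited spot flags (above background, saturated, outlier) were also read.

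Log2 processed intensity minus the array's 75th percentile was averaged over a probe's spots, leaving out 447 spots marked as outliers on any array. No spot was saturated. The percentiles were 1713 and 1504 (2-week and 4-week transplants), 1620, 1720 and 1170 (E13.5, P0 and 8-week kidneys). Probes were named through the authors' gene identifiers and RefSeq (33807 of 39414), and the brightest probe stood for a gene. Where 1 array of a pair was not well above background, its value was replaced by that array's lowest well-above level, unless its own was higher. Spots of the same probe varied by 0.0579 to 0.0748 (log2 SD) within an array, which measures spot error alone. No difference has a p-value.

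Members and lists were chosen with earlier results of these data known. Any member could be named, and from each other list up to 3 with the largest differences each way. Ppara, Eci1, Hibch, Fgf21, Xist and Ddx3y were named after values were seen. Alternatives were normexp (limma 3.58.1, offset 50) on median signals, normexp with 153 negative control spots per array, the mean over probes, quantile normalization, the authors' table, background filters and a 4-fold threshold. Counting the Acsm genes as mitochondrial was an alternative chosen after seeing the data. The steps were tested on simulated data. Per the file headers the array grid is on mm9, so no probe coordinates are given.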

Additional observations from a re-analysis of the deposited data

How the results depend on the processing

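No paired analysis was possible because each group has 1 array, and for the same reason no replicate could be left out. Among the recomputed counts of members, 103 stayed within 1.5 times the reported count and 25 did not. At 4-fold the counts of higher genes were 10 (2-week transplant against E13.5), 2 (2-week transplant against P0), 1 (4-week against 2-week transplant), 2 (4-week transplant against the 8-week kidney), 7 (4-week transplant against P0) and 20 (8-week kidney against P0). Those of lower genes were 17 (2-week transplant against the 8-week kidney), 0 (2-week transplant against E13.5), 1 (4-week against 2-week transplant), 9 (4-week transplant against the 8-week kidney), 2 (4-week transplant against P0) and 0 (8-week kidney against P0), as a stricter threshold must give fewer. For higher genes in the 2-week transplant against the 8-week kidney the count of 1, Acsl6 at its bound, became 0 with either normexp correction, with the mean over probes and with genes well above background on both arrays, 2 without a filter and 3 in the authors' table. In that table the counts of higher genes were 11 (4-week against 2-week transplant) and 7 (4-week transplant against the 8-week kidney). With normexp the counts of lower genes were 2 (2-week transplant against E13.5), 1 (4-week against 2-week transplant, also with negative controls), 0 (8-week kidney against P0) and 1 (P0 against E13.5). On the E13.5 array normexp estimated a mean background of -992, against 20.7 to 27.5 elsewhere. The cause of the other moves was not tested.

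The authors' table moved the median of all genes to -0.46 (8-week kidney against P0), 0.49 (2-week transplant against the 8-week kidney) and 0.36 (4-week transplant against the 8-week kidney). Its shares of genes higher and lower were 14.4% and 35.3%, 35.5% and 13.8%, and 31.8% and 13.6% in these comparisons, against 23.6% and 21.0%, 21.7% and 22.5%, and 22.3% and 18.6% as reported. For the 4-week against the 2-week transplant they were 7.98% and 9.29%, against 9.09% and 5.68%. With normexp they were 6.58% and 33.7% (P0 against E13.5, reported 13.9% and 11.9%) and 9.73% and 35.9% (2-week transplant against E13.5, reported 21.5% and 20.3%). Probes not well above background limit Abcd2, Acsl6, Acox2, Acsm1 and Acsm2 to bounds on the arrays named.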
